A study of Mus musculus with 5 samples.

Results

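Among 17771 cells of advanced mouse pancreatic tumours, 985 held the RNA marks of dedifferentiated carcinoma cells together with substantial RNA of the simple keratins Krt8 and Krt18. They are called keratin-retaining cells here. A cell was chosen by thresholds on its UMIs (unique molecular identifiers, each standing for 1 captured RNA molecule) per 10000. Cdkn2a and Hmga2 together had to reach 5 and Krt8 and Krt18 together 15. Epcam, Cldn4 and Cldn7 together had to stay below 4, the fibroblast genes Dcn and Dpt below 5, and the endothelial genes Pecam1 and Cdh5 below 2. Since these values chose the cells, their levels are given as a description and without a test.

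The tumours came from KPPC and KPPCN mice of 7 to 8 weeks. As these strains are known, both genotypes lack both copies of Trp53 in cells that have expressed Pdx1-Cre, a recombinase active in the pancreatic epithelial lineage, and KPPCN mice lack Nsdhl, an enzyme of late cholesterol synthesis, in the same cells. The labels give 3 mice of each genotype, and the libraries analysed here were KPPC C3, D3 and H2 and KPPCN 1 and 2. Microbeads took out dead and CD45-positive cells, some 6000 cells went into each droplet library (10x Genomics 3′ V3 chemistry), and reads were 98 bp long. The study's question was how loss of cholesterol synthesis bears on TGFβ signalling and basal differentiation of the carcinoma. Values below stand in the order KPPC C3, D3 and H2, then KPPCN 1 and 2.

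Carcinoma cells of the pancreas can leave the glandular state by losing the claudins and cadherins that hold an epithelial sheet together and by taking up vimentin and other mesenchymal genes. KRT8 and KRT18 pair to form the intermediate filaments of simple epithelia, and a carcinoma cell may keep them after its junction genes are gone. Cdkn2a encodes inhibitors of the cell cycle that act through Rb and p53, and its RNA often accumulates where those pathways are broken. Hmga2 encodes a chromatin protein of fetal tissue that many tumours express again.

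On GRCm38, with GENCODE M21 annotation, Krt8 (chromosome 15, 101996698 to 102004482, minus strand) and Krt18 (chromosome 15, 102028180 to 102032027, plus strand) are neighbours with 23697 bases between them. Cdkn2a lies on chromosome 4 (89274471 to 89294653, minus strand) and Hmga2 on chromosome 10 (120361275 to 120476469, minus strand). The other markers of the label are Areg, which encodes the EGF receptor ligand amphiregulin (chromosome 5, 91139599 to 91148432, plus strand), and Upp1, which encodes uridine phosphorylase (chromosome 11, 9118103 to 9136170, plus strand). The counts are of whole genes, so no exon or UTR was separated.

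Keratin-retaining cells were found in every library: 319 of 3777 cells in KPPC C3, 99 of 3282 in D3, 51 of 2515 in H2, 165 of 6111 in KPPCN 1 and 351 of 2086 in KPPCN 2. Their median depth was 25892, 25014 and 18624 UMIs in KPPC and 13609 and 23510 UMIs in KPPCN. Over all cells, library totals ranged from 28435267 to 80501725 UMIs, and KPPCN 1 stood apart with a median of 2006 UMIs per cell against 17391 to 20904 in the others. Because the rule works on UMIs per 10000, shallow cells pass or miss it on few molecules, and 188 of the 985 cells held under 5000 UMIs. A barcode was shared between libraries in 27 cases, which touched 1 keratin-retaining cell. No doublet caller was run.

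As a share of all cells of a library, keratin-retaining cells made up 8.45% in KPPC C3 (exact binomial 95% interval 7.58 to 9.38), 3.02% in D3 (2.46 to 3.66) and 2.03% in H2 (1.51 to 2.66). In KPPCN they made up 2.70% of library 1 (2.31 to 3.14) and 16.8% of library 2 (15.2 to 18.5). The intervals cover counting error only. KPPCN 1 lay within the KPPC range and KPPCN 2 above it, so the genotypes overlapped. The means were 4.50 ± 3.46% (SD, n = 3) in KPPC and 9.76 ± 9.99% (n = 2) in KPPCN. A two-sided exact permutation test over libraries gave p = 0.6, where 10 possible splits allow no p below 0.1. With a keratin threshold of 30 in place of 15 the shares were 5.77, 2.32 and 1.31% against 1.69 and 3.07%, and the difference turned from 5.27 to −0.756 percentage points. It was 13.5 points with a threshold of 8, 8.92 with cells thinned to 2000 UMIs and −1.80 without KPPCN 2. Of keratin-retaining, keratin-low and epithelial cells together, the keratin-retaining ones were 31.2, 9.63 and 6.12% in KPPC against 39.6 and 25.4% in KPPCN, a difference of 16.8 points (exact permutation p = 0.3).

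**Figure D1:**
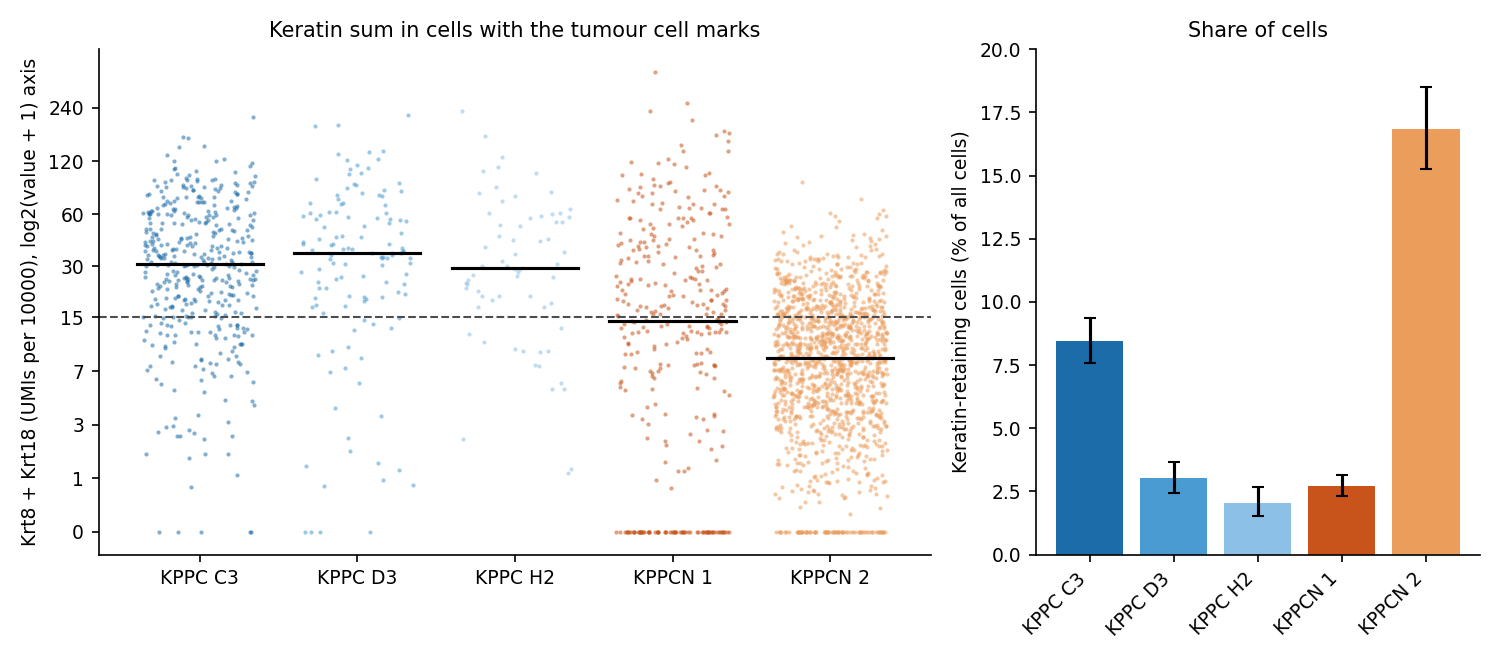
Left, the sum of Krt8 and Krt18 in UMIs per 10000 (log2(value + 1) axis) in each cell that met the rule apart from the keratin threshold, with the median of each library as a black bar and the threshold of 15 dashed. Right, keratin-retaining cells as a percentage of all cells with exact binomial 95% intervals. In KPPCN 2 most cells lie under the line and the cells above it lie close to it.

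The keratin content of the chosen cells differed between libraries. The median keratin sum was 39.4, 41.7 and 42.3 UMIs per 10000 in KPPC and 39.2 in KPPCN 1, against 21.3 in KPPCN 2. Those of KPPCN 2 spanned 17.3 to 27.3 from the first to the third quartile, while the first quartile was 25.7, 31.1 and 26.3 in KPPC and 23.2 in KPPCN 1, so the cells of KPPCN 2 overlapped those of the other libraries. Cells that met every other threshold but fell short on keratin are called keratin-low cells and numbered 92, 26 and 15 in KPPC and 171 and 986 in KPPCN. Of keratin-retaining and keratin-low cells together, the keratin-retaining ones were 77.6, 79.2 and 77.3% in KPPC and 49.1 and 26.3% in KPPCN. Both KPPCN values were below each KPPC value, a difference of −40.3 percentage points (exact permutation p = 0.1, the smallest possible). This denominator was added after the data had been seen, and the split is by the rule's own keratin threshold. The p therefore cannot serve as a test, and the shares are a description. In KPPCN 1 the keratin-low cells were shallow, with a median of 2014 UMIs against 13609 in the keratin-retaining cells, and 41.5% of them held no keratin UMI. In KPPCN 2 the keratin-low cells were as deep, at 26084 UMIs, and 7.30% held none. A UMI of the mesenchymal gene Vim was found in 67.84% of the keratin-low cells of KPPCN 1 and a UMI of the leukocyte gene Ptprc in 30.99%. In its keratin-retaining cells these shares were 99.39 and 24.85%. Whether all keratin-low cells of KPPCN 1 were tumour cells was not tested. The part of depth in the lower KPPCN 1 value was not tested either.

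The keratin threshold cut through a continuous range. Of the chosen cells 153 lay within 20% above it (lowest sum 15.0028) and 181 keratin-low cells within 20% below it (highest 14.991). The Epcam and claudin threshold alone kept out 784 cells, and 13 chosen cells and 8 of those kept out lay within 20% of it. For the sum of Cdkn2a and Hmga2 these counts were 193, 32 and 22, and for Dcn and Dpt 62, 20 and 7. The endothelial threshold alone kept out 8 cells.

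The label was set against its 6 markers and against 3 other populations of the same libraries, cut by the same genes. Epithelial cells (2409) passed the Epcam and claudin level and the keratin threshold. They numbered 610, 903 and 768 in KPPC but only 81 and 47 in KPPCN. Their acinar markers (5 usable genes) summed to 5162, 1216 and 8281 CPM in KPPC and 153 and 25326 CPM in KPPCN. Their endocrine markers (3 usable genes) summed to 225, 1331 and 125 CPM in KPPC and 3.69 and 4386 CPM in KPPCN. This population therefore held acinar and endocrine RNA, most of all in KPPCN 2. Fibroblast cells (8188) passed the Dcn and Dpt level. They stayed below the levels of Epcam and claudins, of endothelial genes and of Cdkn2a and Hmga2, and no keratin limit was set for them. The keratin-low cells (1290) were the third. Since the same genes cut all of them, values between populations describe the rule's own contrast and were not tested. CPM here are UMIs of the population in a library, scaled to the same total in each and not scaled further.

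Cdkn2a stood at 1012, 1101 and 1065 CPM in KPPC and 1028 and 1159 CPM in KPPCN, levels that the rule itself bounded from below. It stood at 1025 to 1541 CPM in keratin-low, 211 to 322 CPM in epithelial and 23.0 to 34.7 CPM in fibroblast cells. Hmga2 stood at 959, 793 and 594 CPM in KPPC and 485 and 747 CPM in KPPCN. Its range was 394 to 739 CPM in keratin-low cells, 91.1 to 269.6 CPM in epithelial cells and 11.5 to 38.3 CPM in fibroblast cells. For both genes keratin-retaining and keratin-low cells overlapped.

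Krt8 stood at 2433, 2548 and 1632 CPM in KPPC and 3254 and 1144 CPM in KPPCN, and Krt18 at 2692, 3329 and 2493 CPM in KPPC and 4119.6 and 1222 CPM in KPPCN. KPPCN 2 was lowest for both genes. Epithelial cells held 4131 to 5170.1 CPM of Krt8 and 3737 to 6156 CPM of Krt18, above the keratin-retaining cells in every library. Fibroblast cells, which should lack both, held 133 to 236 and 89.6 to 183 CPM. Of the other simple keratins, Krt7 of ducts stood at 155, 313 and 258 CPM in KPPC and 329 and 17.5 CPM in KPPCN, against 2093 to 2798 CPM in epithelial and 38.5 to 117 CPM in fibroblast cells. The duct keratin Krt19 stood at 161, 570.1 and 284 CPM in KPPC and 526 and 159 CPM in KPPCN, against 2015 to 3005 CPM in epithelial and 81.8 to 263 CPM in fibroblast cells. In KPPCN 2 Krt7 was below its own fibroblast level of 38.5 CPM.

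Areg stood at 223, 316 and 184 CPM in KPPC and 319 and 119 CPM in KPPCN in keratin-retaining cells. The populations overlapped, with 105 to 214 CPM in keratin-low and 133 to 200.4 CPM in epithelial cells, while fibroblast cells held 3.72 to 11.1 CPM. Upp1 stood at 290.4, 194 and 169.8 CPM in KPPC and 138 and 325 CPM in KPPCN, above the 44.9 to 54.4 CPM of epithelial cells in each library and overlapping the 85.8 to 382 CPM of keratin-low cells. After each cell was thinned to 5000 UMIs, 41.4, 51.7 and 39.0% of keratin-retaining cells in KPPC and 49.7 and 31.2% in KPPCN held an Areg UMI (57.4, 71.7, 51.0, 63.6 and 54.1% unthinned). The thinned shares in fibroblast cells were 1.23 to 2.93%. All 6 markers of the label were above fibroblast cells in each library, and Cdkn2a, Hmga2 and Upp1 were above epithelial cells in each. The rule used Cdkn2a, Hmga2, Krt8 and Krt18, so their place here was largely set by it. Only Areg and Upp1 lay outside the rule. Areg was above epithelial cells in 3 of 5 libraries. Against keratin-low cells Areg was higher in all 5, as were Krt8 and Krt18, by which the rule cut these cells. Cdkn2a, Hmga2 and Upp1 were not.

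**Figure D2:**
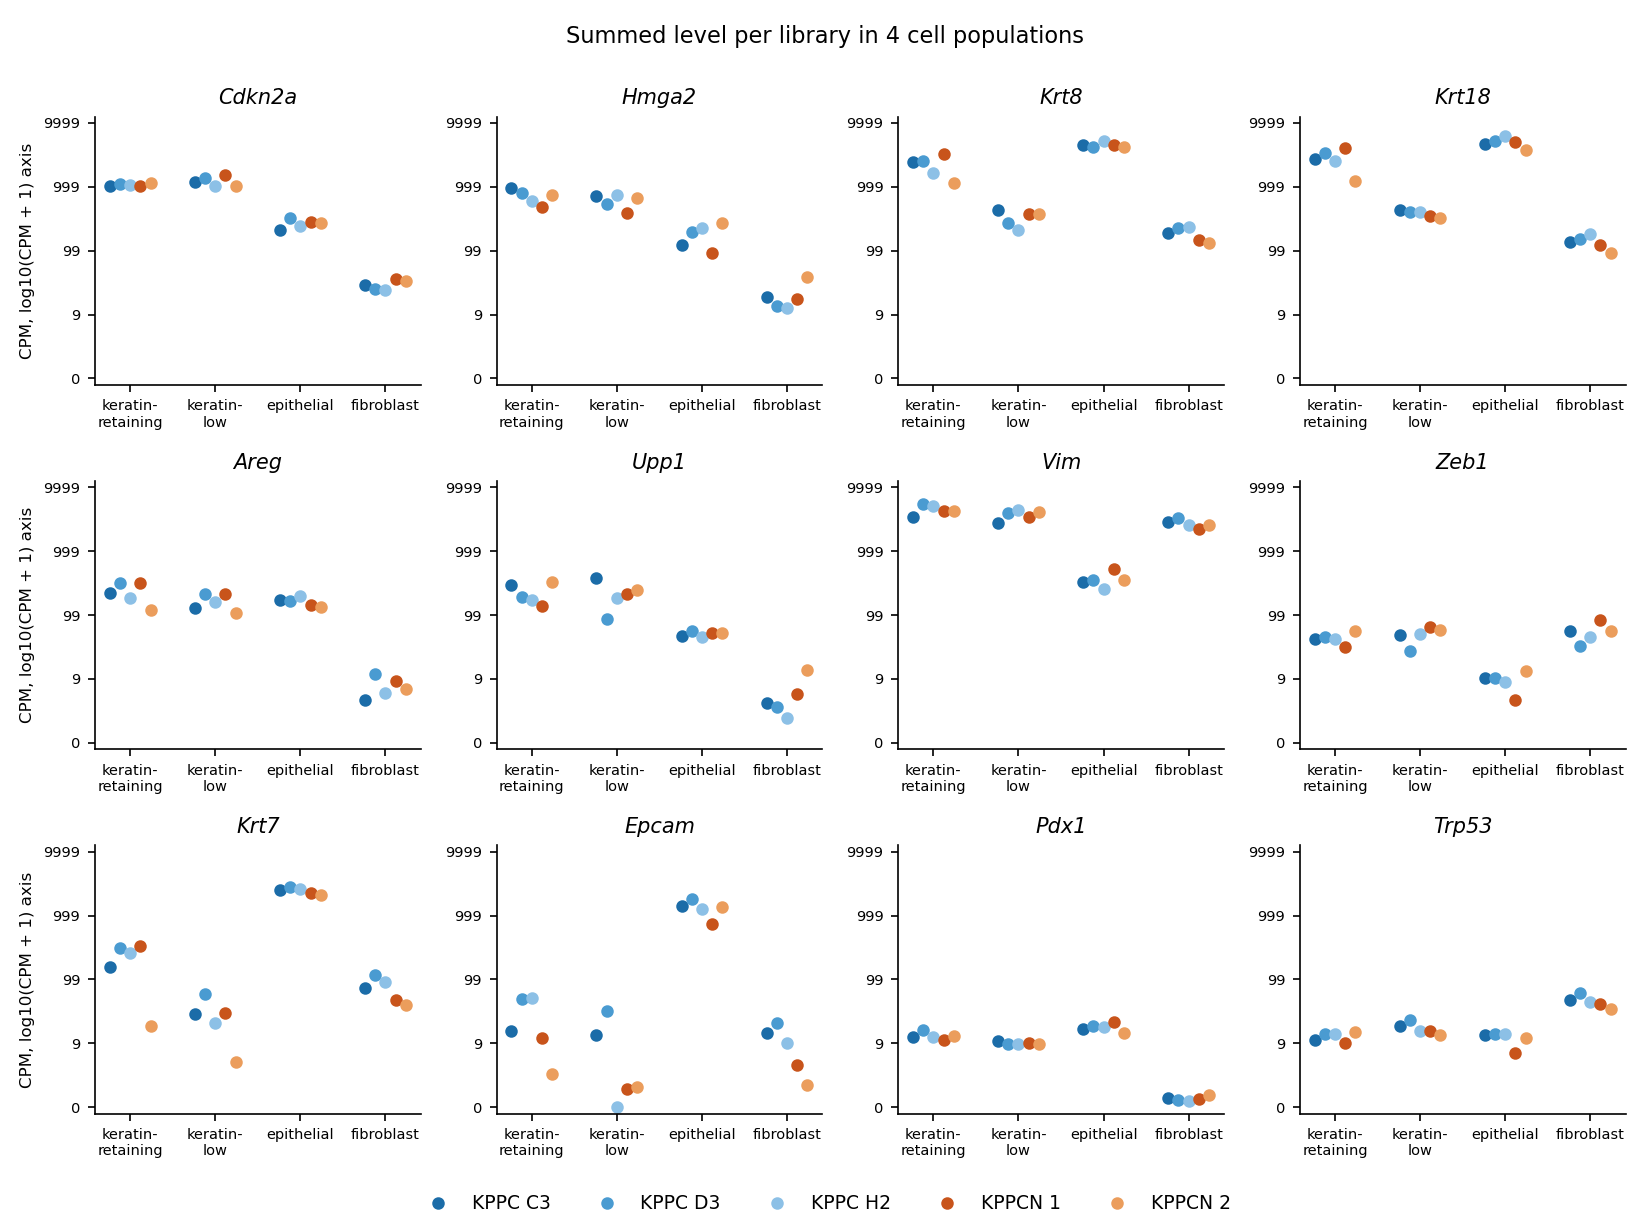
Level of 12 genes in CPM of each population and library (log10(CPM + 1) axis; 1 point per library, blue for KPPC and orange for KPPCN). Cdkn2a, Hmga2, Krt8, Krt18 and Epcam were used to choose the populations. Pdx1 and Trp53 in keratin-retaining cells lie beside the epithelial points and away from the fibroblast points.

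Genes of the pancreatic lineage were present. Pdx1, a transcription factor of the developing pancreas and the promoter behind the Cre, stood at 11.6, 15.2 and 11.4 CPM in KPPC and 10.2 and 12.2 CPM in KPPCN, near the 13.7 to 20.9 CPM of epithelial cells and above the 0.238 to 0.553 CPM of fibroblast cells. Trp53, deleted in the Pdx1-Cre lineage of both genotypes, stood at 10.2, 13.2 and 13.2 CPM in KPPC and 9.16 and 14.2 CPM in KPPCN, overlapping the 6.15 to 13.1 CPM of epithelial cells. Fibroblast cells held 34.1 to 60.8 CPM of Trp53, higher in all 5 libraries. Sox9, a factor of ducts and progenitors, stood at 319, 351 and 303 CPM in KPPC and 186 and 322 CPM in KPPCN, above the epithelial level of its own library in all 5. Of 17 measured genes of pancreatic lineage and of the glandular ("classical") carcinoma, 16 were below the epithelial cells in all 5 libraries (median log2 difference −2.24), and Sox9 was the other. Over all genes 21.9% were lower in every library and 24.7% higher.

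The mesenchymal side was raised against epithelial cells. Of 18 measured mesenchymal genes and EMT factors, 15 were higher in all 5 libraries and none lower in all (median 1.80). Vim, the mesenchymal intermediate filament, stood at 3490.4, 5542 and 5043 CPM in KPPC and 4279 and 4317 CPM in KPPCN, above the 259 to 518 CPM of epithelial and also above the 2242 to 3295 CPM of fibroblast cells in each library. The EMT transcription factors Zeb1 and Twist1 stood at 31.1 to 56.2 and 41.7 to 110.3 CPM, against 3.69 to 12.4 and 4.21 to 8.62 CPM in epithelial cells. The cadherin Cdh2 stood at 31.1 to 44.4 CPM against 2.46 to 5.66. S100a4, a calcium-binding protein of motile cells, differed from epithelial cells by 3.75 to 5.34 on the log2 scale.

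Junction genes were low. Of 17 measured, none was higher than in epithelial cells in every library and 16 were lower in every library (median −2.64). Epcam, which the rule held down, stood at 14.9, 48.0 and 50.2 CPM in KPPC and 11.2 and 2.25 CPM in KPPCN, and fibroblast cells held 1.22 to 19.8 CPM. Cdh1, the epithelial cadherin, which the rule did not use, stood at 26.1, 61.2 and 47.5 CPM in KPPC and 31.1 and 6.37 CPM in KPPCN against 358 to 374 CPM in epithelial cells. Its fibroblast level was 1.99 to 14.5 CPM and lay under that of the keratin-retaining cells in each library. Klra4, Ggct and Stmn2 were among the genes with the most even excess over epithelial cells, at 3.90 to 4.59, 3.31 to 4.47 and 3.25 to 4.44 on the log2 scale. Gastric and acinar genes lay at the other end, with Tff1 at −7.94 to −4.62 and Reg1 at −8.86 to −5.00.

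Of the growth and signalling genes, Ccnd1, the G1 cyclin, stood at 1015, 847 and 603 CPM in KPPC and 715 and 635 CPM in KPPCN, against 278 to 348 CPM in epithelial and 17.0 to 45.3 CPM in fibroblast cells. The EGF family ligand Hbegf stood at 823 to 999 CPM, overlapping epithelial cells (538 to 1002) and above fibroblast cells (47.1 to 117). The ligand Tgfb1 stood at 224 to 398 CPM against 67.7 to 111 in epithelial cells, and Inhba, which encodes the activin A subunit, at 215 to 502 against 56.6 to 214 CPM. Of 15 measured G2/M genes 12 were above epithelial cells in every library (median 0.82), and of 16 Ras-MAPK output genes 10 (median 0.58). Genes of cholesterol synthesis and uptake lay lower, 16 of 26 in all 5 libraries and 1 higher (median −0.65).

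Against fibroblast cells, where 34% of all genes were higher and 25.6% lower in every library, extracellular matrix genes were low (18 of 21 lower, 2 higher, median −2.54). So were interferon-stimulated genes (12 of 12 lower, median −1.88) and MHC class I presentation genes (8 of 8 lower, median −1.82). Col3a1, a fibrillar collagen, ranged over 108 to 372 CPM, and over 5142 to 12554 CPM in fibroblast cells.

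Keratin-low cells were the nearest population, and 7.1% of genes were higher and 12.9% lower in the keratin-retaining cells in every library. These counts include KPPC H2, where only 15 cells were keratin-low, and without it the shares were 11.7% and 19.2%. Beyond Krt8 and Krt18, Krt7 (1.32 to 3.39 on the log2 scale), the surface glycoprotein gene Msln (0.77 to 2.31) and the secreted inhibitor gene Wfdc2 (0.72 to 3.18) were higher in all 5. So was Itga3, a laminin-binding integrin subunit (0.65 to 1.51). Matrix genes were lower, 15 of 21 in all 5 libraries and 1 higher (median −0.98; 15 lower and 2 higher without H2). Postn differed by −4.24 to −0.72, Lox by −2.32 to −0.73 and Cthrc1 by −3.07 to −0.96. Acta2, the smooth muscle actin of contractile cells, stood at 14.4, 16.6 and 14.1 CPM in KPPC and 24.9 and 43.8 CPM in KPPCN in keratin-retaining cells and at 388, 205 and 1982 CPM in KPPC and 54.0 and 100.2 CPM in KPPCN in keratin-low cells.

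Marker sums of other cell types were low in keratin-retaining cells but not 0. The endothelial list summed to 17.6 to 23.0 CPM in KPPC and 8.65 and 21.9 CPM in KPPCN, and Kdr, Plvap, Emcn and Esam of its 6 usable genes were under 5 CPM throughout. Of 3 usable macrophage genes the sum was 6.16 to 11.1 against 15.3 and 8.72 CPM, with Csf1r under 5. Acinar genes (5 of 10 usable) summed to 16.9 to 78.3 against 91.1 and 56.1 CPM, and fibroblast genes (6 of 8) to 178 to 268 against 273 and 145 CPM. The mesothelial sum of 351 to 798 against 752 and 169 CPM came from Msln and Krt19, and Upk3b, Lrrn4, Upk1b and Gpm6a were under 5. The pericyte sum was 39.8 to 87.1 against 19.9 and 89.8 CPM, with Kcnj8, Abcc9 and Notch3 under 5. Endocrine genes (3 of 8 usable) summed to 21.5 to 32.6 against 0.255 and 6.96 CPM. Lists of T/NK, B/plasma, neutrophil and erythroid cells held no gene listed in every library. In KPPCN 1 the keratin-retaining cells held 597 CPM of the immunoglobulin gene Igkc and 965 CPM of the globin gene Hbb-bs. A Ptprc UMI was found in 24.85% of them, against 0% in KPPCN 2. The other populations of KPPCN 1 held it too, in 30.99% of keratin-low, 12.35% of epithelial and 21.6% of fibroblast cells. Any UMI of the leukocyte, T/NK and B/plasma lists was found in 97.6% of keratin-retaining cells in KPPCN 1 and 67.5% in KPPCN 2. In KPPC, where most of these genes are not listed, the shares were 36.1, 31.3 and 9.80%. Cd53 of the leukocyte list alone stood at 118 CPM in the keratin-retaining cells of KPPCN 2, and its part in the 67.5% was not tested. Igkc, Hbb-bs and Ptprc were not listed in every library and were left out of the genotype comparison. Hbb-bs was not confined to KPPCN 1. In keratin-retaining cells of 5000 to 80000 UMIs it stood at 268 CPM in KPPC C3, 4.86 CPM in H2, 1071 CPM in KPPCN 1 and 432 CPM in KPPCN 2.

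Keratin-retaining cells also differed among themselves by depth. In KPPC C3 the 75 cells under 5000 UMIs had a median mitochondrial share of 0.590% and 2699.8 CPM of Malat1, a nuclear long noncoding RNA, while the 196 cells of 5000 to 80000 UMIs had 3.42% and 19124 CPM. In KPPCN 2 the values were 0.629% and 3369 CPM in 75 shallow cells against 3.35% and 10744 CPM in 260 cells. The mitochondrial share was lower in the shallow class of every library (0.192 to 1.05% against 2.82 to 4.06%). Malat1 did not follow in each: it stood at 22463 CPM in the 10 shallow cells of KPPC H2 against 21152 CPM in its 40 deeper cells, and at 10748 against 11888 CPM in KPPCN 1. Krt18, which the rule used, stood at 2564 and 2641 CPM in the shallow and deeper classes of KPPC C3 and at 1429 and 1211 CPM in KPPCN 2, but at 6716 and 2477 CPM in KPPC H2 and 2867 and 4070 CPM in KPPCN 1. Within libraries, at 5000 UMIs per cell, the keratin sum was weakly related to a few genes. Spearman's rho with S100a6 was 0.12 to 0.36 and with the fibronectin gene Fn1 −0.43 to −0.11 over 41 to 276 cells per library. Cells of a library share their processing, and these values are a description.

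The genotypes were compared within keratin-retaining cells on UMI sums per library, with totals scaled by trimmed means, and the CPM that follow are on this scale. No gene passed limma's test at an adjusted p of 0.05 (0 of 10363 in either direction, or 0%; lowest adjusted p 0.614), and 658 had an unadjusted p under 0.05. The p-values rest on the spread between 3 and 2 libraries. Other pseudocounts, filters of low values and scalings with limma also gave 0, and cells without an immune UMI gave 3 genes higher and 1 lower, with KPPCN 1 dropped for holding under 20 such cells. Most immune genes are not listed in the KPPC table, so this setting reads more genes in KPPCN than in KPPC. The 2 KPPCN values were above the 3 KPPC values in 11.4% of genes and below them in 9.96%, and these shares are the background for the counts below. The median log2 difference over all genes was 0.01. Nsdhl stood at 14.4, 11.3 and 10.2 CPM in KPPC and 26.3 and 13.5 CPM in KPPCN, and the groups overlapped. The sources used here do not give the deleted part of the gene, so a 3′ tag may lie outside it and this value checks nothing.

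**Figure D3:**
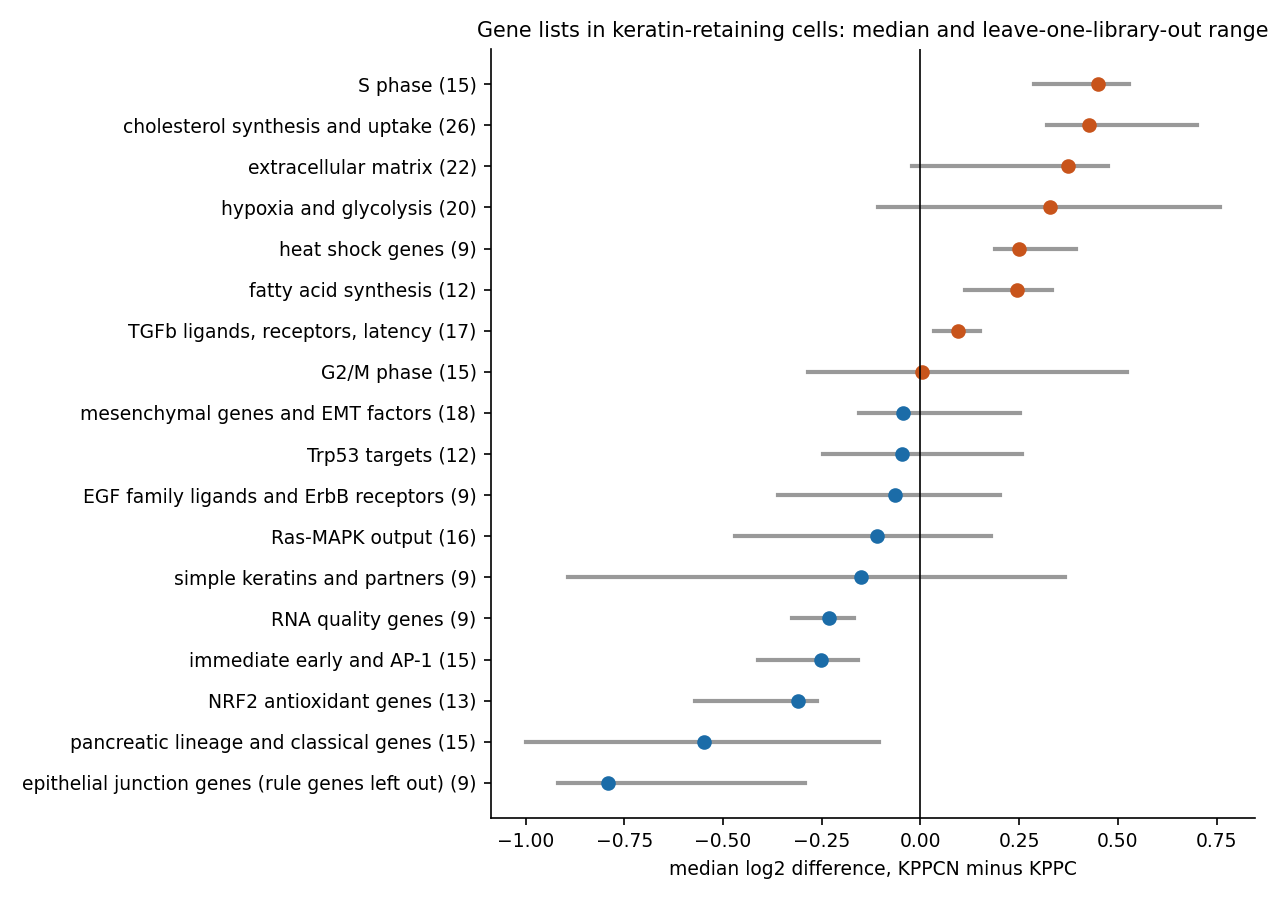
Median log2 difference (KPPCN minus KPPC, log2(CPM + 5) scale) in keratin-retaining cells for 18 gene lists, with the number of tested genes in brackets. Grey bars run from the lowest to the highest median when each library in turn is left out. S phase and cholesterol genes lie to the right of 0 throughout, and junction, pancreatic lineage and NRF2 genes to the left.

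Genes of cholesterol synthesis and uptake stood higher in KPPCN. Of 26 tested, 23 had a higher estimate, for 12 the KPPCN values stood above every KPPC value and for none below, and none passed the test over all genes (10 at an unadjusted p under 0.05). Their median was 0.43, and with each library left out 0.32 (without KPPCN 1) to 0.70 (without KPPCN 2). Fdps, which makes farnesyl diphosphate, stood at 95.4, 61.4 and 89.5 CPM in KPPC and 250.2 and 215 CPM in KPPCN (log2 difference 1.46 ± 0.24, SE; adjusted p = 0.635). Both KPPCN libraries lay far above the highest KPPC library. In fibroblast cells of the same libraries Fdps stood at 23.1 to 55.3 CPM, with both KPPCN values inside or below the KPPC range.

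Acat2, which starts the pathway from acetyl-CoA, stood at 11.9, 9.65 and 12.8 CPM in KPPC and 32.1 and 30.3 CPM in KPPCN (1.15 ± 0.20). Pmvk, a mevalonate pathway kinase, stood at 30.4, 20.3 and 30.7 CPM in KPPC and 59.5 and 62.6 CPM in KPPCN (1.06 ± 0.23), and the decarboxylase Mvd at 11.2, 10.3 and 9.37 CPM in KPPC and 33.4 and 21.6 CPM in KPPCN (1.03 ± 0.23). For each of these genes the genotypes did not overlap. Cyp51, the lanosterol demethylase, stood at 30.6, 26.0 and 36.6 CPM in KPPC and 65.0 and 48.1 CPM in KPPCN (0.78 ± 0.23). Hmgcs1, which makes HMG-CoA, stood at 64.1, 50.5 and 78.4 CPM in KPPC and 82.9 and 55.9 CPM in KPPCN, and the genotypes overlapped. Soat1, which esterifies cholesterol for storage, stood at 62.9, 73.0 and 71.6 CPM in KPPC and 106 and 126 CPM in KPPCN (0.71 ± 0.20).

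Fatty acid synthesis genes stood higher in 11 of 12 estimates, 5 of them without overlap and none lower without overlap (median 0.24). Without KPPC D3 the median was 0.11, and without KPPCN 1 the estimates split 7 higher to 6 lower (median 0.27). Fads1, a desaturase of polyunsaturated fatty acids, stood at 7.40, 5.47 and 7.67 CPM in KPPC and 19.7 and 22.7 CPM in KPPCN (1.16 ± 0.20). The elongase Elovl6 stood at 16.9, 8.36 and 11.1 CPM in KPPC and 28.9 and 38.1 CPM in KPPCN (1.15 ± 0.27), and Fasn, the fatty acid synthase, at 74.0, 63.7 and 48.6 CPM in KPPC and 120.2 and 96.2 CPM in KPPCN (0.73 ± 0.24). In each of them both KPPCN libraries were above the KPPC libraries.

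**Figure D4:**
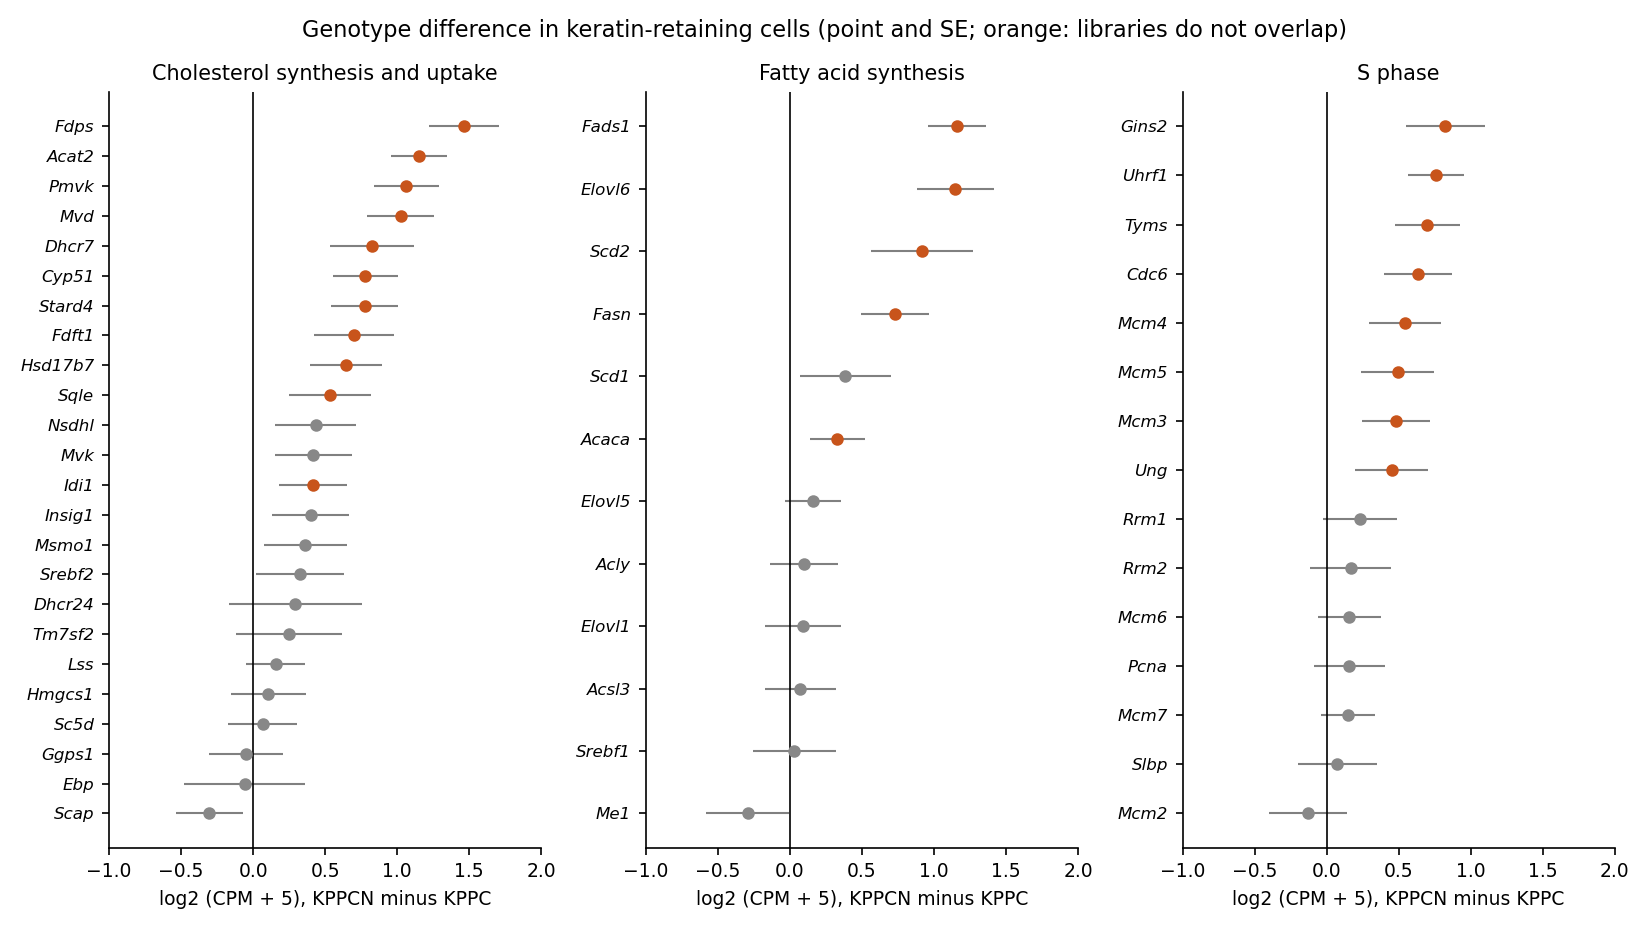
Log2 difference (KPPCN minus KPPC) with its SE for genes of 3 lists in keratin-retaining cells. Orange points mark genes whose KPPCN libraries do not overlap the KPPC libraries (11 of the 24 drawn, 5 of 12 and 8 of 15), and none passed the adjusted test.

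S phase genes stood higher in 14 of 15 estimates, 8 without overlap (median 0.45, and 0.29 without KPPC H2), and G2/M genes split 8 to 7 with no gene apart (median 0.00). In cells of 5000 to 80000 UMIs, an unplanned alternative, G2/M genes were higher in 12 of 15 (median 0.29). S phase genes were then higher in 14 of 15 (median 0.26), so the contrast of the 2 lists was not seen there. Tyms, the thymidylate synthase, stood at 34.6, 48.9 and 50.3 CPM in KPPC and 71.6 and 74.1 CPM in KPPCN (0.70 ± 0.22), and Uhrf1, which maintains DNA methylation at replication, at 17.6, 20.3 and 16.2 CPM in KPPC and 36.6 and 32.1 CPM in KPPCN (0.76 ± 0.20). Hypoxia and glycolysis genes were higher in 18 of 20 estimates (3 apart higher, 1 apart lower, median 0.33), but the median was −0.11 without KPPCN 2. Against that direction Hk2, a hexokinase, stood at 243, 249 and 249.7 CPM in KPPC and 146 and 154 CPM in KPPCN (−0.70 ± 0.18).

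NRF2 antioxidant genes stood lower in 12 of 13 estimates, 6 without overlap and none higher without overlap (median −0.31, and −0.57 without KPPCN 1). Hmox1, the inducible haem oxygenase, stood at 35.1, 39.6 and 31.5 CPM in KPPC and 16.6 and 20.7 CPM in KPPCN (−0.78 ± 0.20), and Gsr, the glutathione reductase, at 78.1, 104 and 58.8 CPM in KPPC and 50.2 and 46.7 CPM in KPPCN (−0.67 ± 0.26). In both the KPPCN libraries were below all KPPC libraries.

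Junction genes that the rule did not use were lower in 9 of 9 estimates, 4 without overlap (median −0.79). Without KPPCN 2 the median was −0.29 and 2 of the 9 were higher. Cdh1 stood at 27.8, 59.5 and 46.0 CPM in KPPC and 32.1 and 6.28 CPM in KPPCN (−1.27 ± 0.52), where KPPCN 1 lay inside the KPPC range and KPPCN 2 below it. Levels this low lay near those of cells that should lack the genes: the glycoprotein gene Muc1, another of the list, stood at 12.7, 36.4 and 28.2 CPM in KPPC and 5.85 and 1.86 CPM in KPPCN in keratin-retaining cells and at 16.1, 29.0 and 15.8 CPM in KPPC and 8.58 and 2.21 CPM in KPPCN in fibroblast cells, both on unscaled totals. Genes of pancreatic lineage and the classical carcinoma were lower in 12 of 15 estimates, 4 without overlap (median −0.55). The median was −0.11 without KPPCN 2, with 9 of 15 lower, and −0.94 without KPPCN 1, with 14 of 16 lower. Without KPPC C3 14 of 15 were lower. Of these the trefoil gene Tff2 differed most, with 64.9, 37.0 and 107 CPM in KPPC and 8.94 and 2.41 CPM in KPPCN (−2.77 ± 0.44). Fibroblast cells held it at 61.4, 44.4 and 57.6 CPM in KPPC and 7.43 and 5.20 CPM in KPPCN on unscaled totals, so its level in keratin-retaining cells was near that in cells that should lack it. The same held for Dmbt1, a secreted glycoprotein gene, at 174, 110.0 and 67.3 CPM in KPPC and 13.2 and 9.94 CPM in KPPCN, with 184, 136 and 82.1 CPM in KPPC and 15.3 and 11.7 CPM in KPPCN in fibroblast cells.

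TGFβ ligands, receptors and latency genes were higher in 13 of 17 estimates, none apart higher and 1 apart lower (median 0.10, and 0.035 without KPPCN 2). Of SMAD genes and targets 11 of 20 were higher, 3 apart higher and 5 apart lower. Pmepa1, a TGFβ-induced inhibitor of SMAD signalling, stood at 625, 867 and 738 CPM in KPPC and 1288 and 1066 CPM in KPPCN (0.67 ± 0.22). Tgfbi, another TGFβ-induced gene, went the other way at 88.5, 96.5 and 59.7 CPM in KPPC and 47.1 and 36.2 CPM in KPPCN (−0.91 ± 0.26). The cytokine Il11 stood at 9.95, 33.1 and 19.6 CPM in KPPC and 4.74 and 3.96 CPM in KPPCN (−1.31 ± 0.39). No direction common to the TGFβ lists was therefore seen.

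Mesenchymal genes split 8 higher to 10 lower (3 and 2 apart, median −0.04). Sparc, a matrix protein, stood at 914, 716 and 1039 CPM in KPPC and 1419.9 and 1449 CPM in KPPCN (0.70 ± 0.22), and Spp1, the secreted phosphoprotein osteopontin, at 3238, 10919.6 and 6085 CPM in KPPC and 2459.6 and 2505 CPM in KPPCN (−1.27 ± 0.46). Extracellular matrix genes were higher in 15 of 22 estimates (5 apart higher, 1 apart lower, median 0.37), and −0.022 without KPPC D3. Col5a1, a fibrillar collagen, stood at 40.3, 37.9 and 51.1 CPM in KPPC and 73.4 and 140.5 CPM in KPPCN (1.20 ± 0.30). Vim, at 3722, 5384 and 4884 CPM in KPPC and 4423 and 4255 CPM in KPPCN, and Zeb1, at 44.1, 43.1 and 40.1 CPM in KPPC and 32.1 and 55.4 CPM in KPPCN, overlapped.

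EGF family ligands and receptors had 3 higher and 6 lower estimates (median −0.06). Areg stood at 238, 307 and 178 CPM in KPPC and 329.9 and 117 CPM in KPPCN and Hbegf at 878, 828 and 865 CPM in KPPC and 1033 and 843 CPM in KPPCN, and both overlapped. Among Ras-MAPK output genes 5 were higher and 11 lower (median −0.11). Dusp6, an ERK phosphatase, stood at 188, 168 and 116 CPM in KPPC and 70.2 and 82.2 CPM in KPPCN (−0.99 ± 0.25) and was the only one of the 16 apart between genotypes. Trp53 targets split 5 to 7 (median −0.05), with Mdm2, which encodes the p53 ubiquitin ligase, at 51.5, 55.3 and 44.3 CPM in KPPC and 33.1 and 23.2 CPM in KPPCN (−0.78 ± 0.22). Simple keratins and partners without Krt8 and Krt18 had 2 higher and 7 lower estimates with none apart (median −0.15).

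Over all genes, those with the smallest p in each direction and no overlap were read by rule. Sgk1, a glucocorticoid-induced kinase, stood at 224, 215 and 242 CPM in KPPC and 77.3 and 62.7 CPM in KPPCN (−1.64 ± 0.20; adjusted p = 0.614). The KPPC libraries lay close together and both KPPCN libraries well below them. Btg1, an antiproliferative gene, stood at 544, 584 and 541 CPM in KPPC and 254 and 298 CPM in KPPCN, and Bace2, a membrane protease, at 60.8, 45.7 and 58.8 CPM in KPPC and 19.5 and 11.3 CPM in KPPCN (−1.61 ± 0.25). Rgs5, a regulator of G protein signalling from the list of pericyte markers, stood at 24.0, 65.3 and 48.6 CPM in KPPC and 4.21 and 1.45 CPM in KPPCN (−2.61 ± 0.40), while fibroblast cells held 0.332 to 2.15 CPM. Hebp1, a haem-binding protein gene, stood at 36.5, 26.0 and 23.9 CPM in KPPC and 8.16 and 10.8 CPM in KPPCN (−1.24 ± 0.24).

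In the higher direction the noncoding gene Gm44275 stood at 14.4, 11.6 and 11.1 CPM in KPPC and 40.0 and 51.0 CPM in KPPCN (1.51 ± 0.21; adjusted p = 0.614). Anxa6, a membrane-binding annexin, stood at 133, 151 and 147 CPM in KPPC and 262 and 333 CPM in KPPCN (1.02 ± 0.20), the serine protease gene Htra3 at 18.1, 13.5 and 18.7 CPM in KPPC and 67.1 and 42.3 CPM in KPPCN (1.42 ± 0.26), and Adamts5, an aggrecan-cleaving protease gene, at 3.26, 5.15 and 2.56 CPM in KPPC and 12.9 and 16.8 CPM in KPPCN (1.20 ± 0.21). Wdfy1, at 17.1, 15.8 and 10.2 CPM in KPPC and 36.0 and 51.1 CPM in KPPCN (1.28 ± 0.25), differed in the same direction in fibroblast cells, where it stood at 13.6, 13.5 and 12.2 CPM in KPPC and 38.6 and 53.4 CPM in KPPCN.

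**Figure D5:**
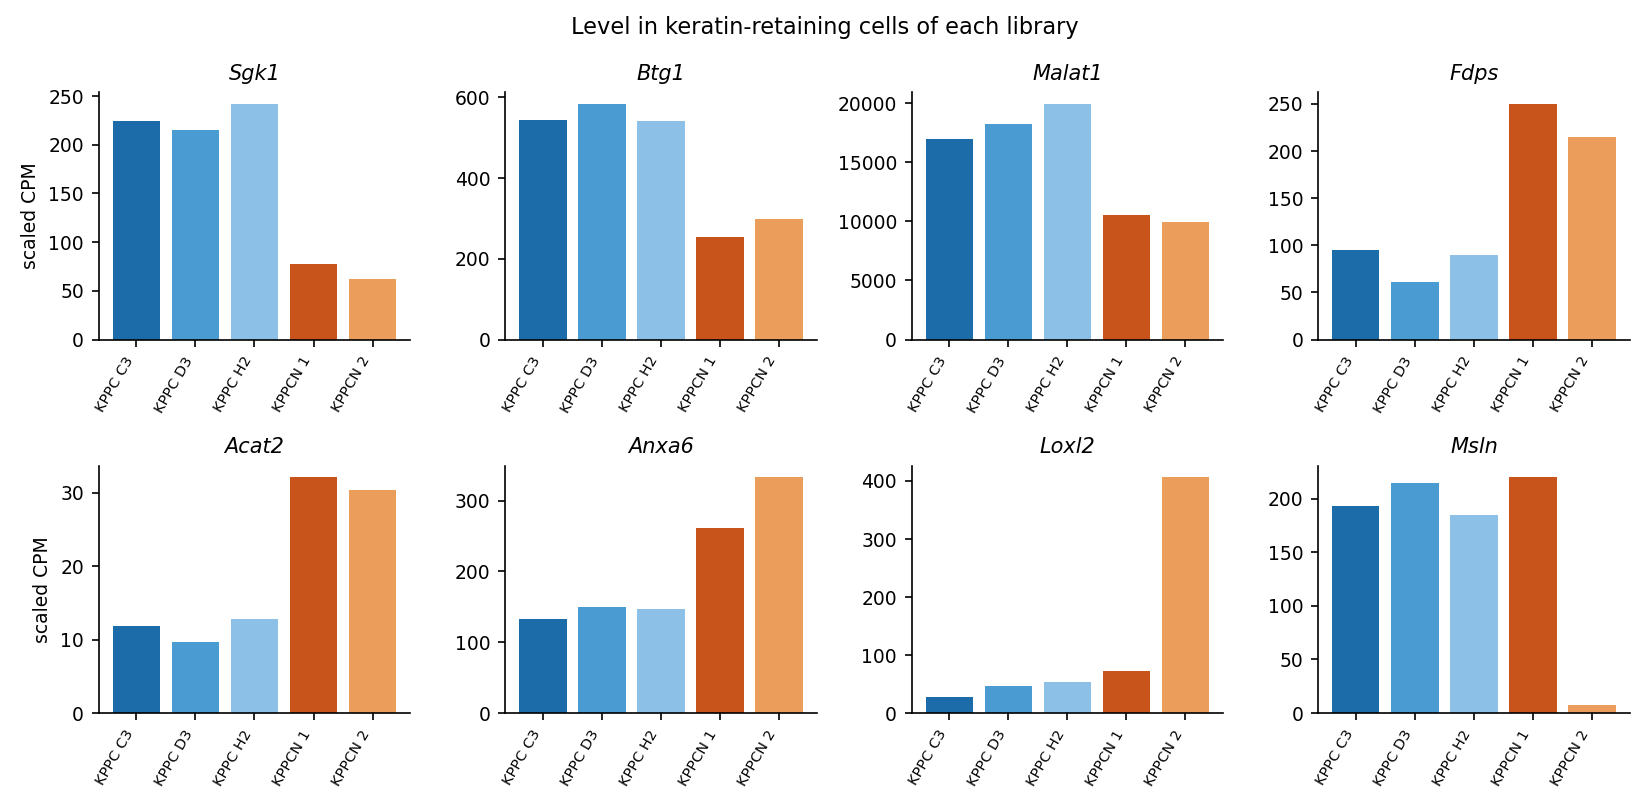
Scaled CPM of 8 genes in keratin-retaining cells, with 1 bar per library (blue KPPC, orange KPPCN). Sgk1, Btg1 and Malat1 are lower and Fdps, Acat2 and Anxa6 higher in both KPPCN libraries, while Loxl2 and Msln stand apart mainly in KPPCN 2.

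RNA quality and stress genes were read beside these differences. Malat1 stood at 16960.0, 18214 and 19943 CPM in KPPC and 10531 and 9978 CPM in KPPCN (−0.84 ± 0.19), while in fibroblast cells it stood at 24183 to 30286 CPM with overlapping genotypes. Of 9 RNA quality genes 8 were lower and 4 apart lower (median −0.23). Heat shock genes were higher in 8 of 9 (median 0.25, and 0.39 without KPPCN 1) and immediate early genes lower in 13 of 15 (median −0.25, and −0.41 without KPPC C3). The part of these in the differences above was not tested.

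KPPCN 2 stood apart from the other 4 libraries in several genes. Loxl2, a lysyl oxidase-like enzyme of the matrix, stood at 28.4, 46.0 and 52.8 CPM in KPPC and 72.3 and 406 CPM in KPPCN (2.03 ± 0.67). Msln stood at 193, 215 and 185 CPM in KPPC and 219.9 and 7.34 CPM in KPPCN, and its difference of −2.05 turned to 0.14 without KPPCN 2. The cadherin Cdh11 stood at 5.37 to 11.1 CPM in KPPC and 3.68 and 158 CPM in KPPCN, the prolyl hydroxylase Egln3 at 44.5, 33.8 and 36.6 CPM in KPPC and 36.0 and 209 CPM in KPPCN and the laminin chain Lama5 at 70.6, 92.6 and 66.5 CPM in KPPC and 109 and 4.63 CPM in KPPCN. Leaving out KPPCN 1, so that KPPCN 2 alone stood against KPPC, gave 163 genes called higher and 204 lower. Leaving out KPPCN 2 gave 1 and 0, so the genotype calls differ by which KPPCN tumour is read. In these fits the lone library is assumed to vary like the KPPC libraries.

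Whether the genotype difference was particular to keratin-retaining cells was tested on within-library differences. Against epithelial cells 0 of 11265 genes passed (0%, limma's lowest adjusted p 0.320, 824 at an unadjusted p under 0.05). The epithelial side of this comparison was only 81 and 47 cells in KPPCN. Against keratin-low cells, in KPPC C3 and D3 and both KPPCN libraries (H2 held under 20 keratin-low cells), 2 of 10845 genes (0.0184%) passed, both higher. Tagln, the smooth muscle protein transgelin, was below keratin-low cells by −4.31 and −5.01 in KPPC and −1.28 and −0.65 in KPPCN on the log2 scale (difference 3.69 ± 0.31, adjusted p = 0.0440). Des, the muscle intermediate filament desmin, gave −3.45 and −3.87 against −0.85 and 0.04 (3.43 ± 0.31, adjusted p = 0.0440). In keratin-retaining cells both genes were low, Tagln at 5.63 to 51.1 CPM and Des at 0 to 8.40 CPM. The keratin-low cells held 254, 349.8 and 629.9 CPM in KPPC and 61.2 and 80.8 CPM in KPPCN of Tagln. In KPPC C3 and D3 the keratin-low side of the test was 92 and 26 cells. The part of each population in these calls was not tested. Without library scaling, without KPPC C3 or without D3 neither passed.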

How the data were processed

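Droplet single-cell libraries of 3 KPPC and 2 KPPCN tumours were read from the authors' 2 deposited tables, whose values are on a natural log scale: ln of 1 plus the UMIs per 10000 of a cell. GRCm38, Seurat 3.0.2, R 3.5.1 and Cell Ranger 2.1.0 are named in the submitters' processing notes; the sources used here do not give filters. UMIs were recovered from the smallest step of each cell (100% of values whole within 0.01). The KPPC table listed 275, 418 and 1036 of the 12579 shared genes at 0 in every cell of C3, D3 and H2, so tests used the 11413 genes listed in all 3.

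UMIs were summed per library and population, and tests used sums of at least 20 cells. Since the values were logs, the planned count model was replaced by limma 3.58.1 (R 4.3.3) with precision weights and trend on log2(CPM + 5), trimmed-mean scaling and Benjamini-Hochberg adjustment at 0.05. Genes needed 15 UMIs over all libraries and 10 at the median total. This scale understates changes of genes near 5 CPM. The limma steps were tested on simulated data. Shares were compared by exact permutation over libraries. Python 3.11.15 was used for the rest.

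Members, gene lists (41) and tests were chosen with earlier results of these data known. Named genes were the label's markers and rule genes, the 10 smallest p per direction among genes without overlap, list members by smallest p (4) and highest level (2), the 8 most even differences per population and direction, and a fixed list; Sox9, Muc1, Cdh11, Egln3 and Igkc and others outside these were named after their values were seen. A few items of the design and the lists are not reported here. Whether the libraries came from separate mice rests on the labels.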

Additional observations from a re-analysis of the deposited data

Results flagged for a closer look

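The difference between genotypes differed between keratin-retaining and keratin-low cells for Tagln (3.69 on the log2 scale, limma adjusted p = 0.0440) and Des (3.43, adjusted p = 0.0440). Both calls were lost without library scaling (3.66 and 3.37), and no cause was tested.

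Genes that the KPPC table does not list had no comparison in the report, and 7 of them reached 500 UMIs in the keratin-retaining cells of KPPCN, nearly all in KPPCN 2. They were the noncoding gene Gm2694 (2091 UMIs), the bombesin-like peptide gene Grp (1292), the cerebellin gene Cbln1 (1292), the testis transcription factor gene Tcfl5 (653), the homeobox gene Irx1 (610), the bone sialoprotein gene Ibsp (565) and the eye and islet factor gene Pax6 (520). In KPPCN 2 they stood at 203, 126, 125, 63.1, 59.3, 54.3 and 49.3 CPM, and in KPPCN 1 at 3.55, 0, 2.03, 1.52, 0.507, 2.03 and 3.81 CPM. Fibroblast cells of KPPCN 2 held at most 10.7 CPM and its epithelial cells at most 18.5 CPM of any of them. The levels in KPPC were not analysed here.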

How the results depend on the processing

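The share of keratin-retaining cells differed between genotypes by 5.27 percentage points. This turned to −0.756 with a keratin threshold of 30 and, in an alternative added after seeing the data, to −40.3 among keratin-retaining and keratin-low cells only. It was 16.8 with epithelial cells added to these, 13.5 with a threshold of 8 and 8.92 with cells thinned to 2000 UMIs. Leaving out each library gave −1.80 (without KPPCN 2) to 12.3 points. Genes called between genotypes numbered 0 higher and 0 lower, 3 and 1 in cells without an immune UMI, and with a library left out 0 to 163 higher and 0 to 204 lower (both highest without KPPCN 1). Against keratin-low cells 2 genes were called higher, 0 without library scaling, and 0 to 10 higher and 0 to 8 lower with a library left out. Against epithelial cells 0 to 3 were lower with a library left out. Why these values moved was not tested.

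Of 40 single genes followed under the alternatives, Msln reversed (−4.04 without KPPCN 1 to 0.14 without KPPCN 2). Of 18 list medians 10 reversed under some alternative. Thinned to 1000 UMIs, where few genes could be tested, cholesterol stood at −0.20 (3 genes), S phase at −0.015 (1 gene), mesenchymal genes at 0.21, EGF genes at 0.31 and Trp53 targets at 0.12. G2/M genes stood at −0.0081 with median-of-ratios scaling and −0.10 at a keratin threshold of 30, and mesenchymal genes at 0.12 without immune UMIs. With a library left out the ranges were G2/M −0.29 to 0.52, hypoxia −0.11 to 0.76, matrix −0.022 to 0.48, mesenchymal −0.15 to 0.25, EGF −0.36 to 0.20, Ras-MAPK −0.47 to 0.18, Trp53 targets −0.25 to 0.26 and simple keratins −0.89 to 0.37. The other 324 list medians kept their sign.

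No paired analysis was possible because the columns of KPPC are coded (C3, D3 and H2) and match no replicate number of the labels. With 3 against 2 libraries the precision is set by their number, and in KPPC H2 by 1136435 UMIs of 51 cells.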

Other observations

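Among keratin-retaining cells, Cd53, a tetraspanin gene known from leukocytes and the only gene of its marker list listed in every library, stood at 7.10, 20.2 and 7.04 CPM in KPPC and 17.1 and 118 CPM in KPPCN on unscaled totals. KPPCN 2 was high and the other libraries were low. Keratin-low cells of KPPCN 2 held 114 CPM, while its epithelial and fibroblast cells held 16.1 and 11.6 CPM.

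Hmga1, a chromatin protein gene related to Hmga2 that the rule did not use, stood at 182, 118 and 189 CPM in KPPC and 119 and 209 CPM in KPPCN. Epithelial cells held 32.0 to 63.0 CPM and fibroblast cells 3.11 to 10.1 CPM, so keratin-retaining cells were higher in each library. Klra4, a gene of the natural killer receptor family, stood at 181, 164 and 144 CPM in KPPC and 137 and 247 CPM in KPPCN, against 2.46 to 11.2 CPM in epithelial and 0.317 to 13.3 CPM in fibroblast cells. Keratin-low cells held 99.0 to 212 CPM of it.

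YAP/TEAD genes had higher KPPCN estimates in 9 of 13, with 5 apart higher and 2 apart lower. MHC class I presentation genes were higher in 5 of 6 and interferon-stimulated genes in 7 of 11, with none apart higher in either list and 1 interferon-stimulated gene apart lower. Interferon-stimulated genes were higher in 3 of 11 without KPPCN 2 (median −0.33), 5 of 11 without KPPC C3 and 10 of 11 without KPPCN 1 or KPPC D3, and MHC class I genes in 3 of 7 without KPPC H2 (median −0.10). Chemokine and cytokine genes were lower in 9 of 12, 1 of them apart, and none passed the test over all genes.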
